A study of Mus musculus with 768 samples.

Results

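The cells compared here were vascular CAF-like (vCAF-like) cells of mouse mammary tumors that yielded many or few reads of their own RNA for the ERCC spike-in reads of the same well. ERCC spike-ins are synthetic RNAs that are added to the wells with the reagents. The ratio of endogenous to ERCC reads therefore serves as a measure of the RNA recovered from a sorted cell. RNA quality, capture and the spike-in amount of a well were not measured. A cell with little RNA thus cannot be told apart from a well with poor recovery. A cell was kept if its well held at least 10000 endogenous reads and at least 1000 genes, and was called vCAF-like if its mean log2(RPKM + 1) over Rgs5, Higd1b, Kcnj8, Rgs4, Abcc9 and Gja4 (vascular score, V) was at least 4 and above the mean over Dcn, Lum, Mfap5, Olfml3, Smoc2 and Serpinf1 (matrix score, M). RPKM is the number of reads scaled to the length of the gene and to the total reads of the well. Of 768 wells, 717 passed the minimum and 496 held vCAF-like cells, 261 in tumor 1 and 235 in tumor 2. Within each tumor the vCAF-like cells were divided by the ratio into 4 rank groups of 65, 65, 66 and 65 cells in tumor 1 and of 58, 59, 60 and 58 in tumor 2. The 25% of cells with the highest ratio (rank group 4) were called RNA-rich and the 25% with the lowest (rank group 1) RNA-poor, which gave 65 and 65 cells in tumor 1 and 58 and 58 in tumor 2, or 246 cells in all.

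Both tumors came from mice of the strain FVB/N-Tg(MMTVPyVT)634Mul/J at 14 weeks of age, in which the mouse mammary tumor virus promoter drives the polyoma middle T oncogene in the mammary epithelium. No treatment is given in the labels, and all cells carry the transgene in their genome. The cells were living (DAPI-negative) and had been sorted as negative for the surface proteins EpCAM, CD45, CD31 and NG2, which mark epithelial cells, leukocytes, endothelial cells and pericytes, before Smart-seq2 libraries were made, 1 cell to a well. Each tumor filled 1 plate of 384 wells, so the tumor is the replicate (n = 2), a tumor cannot be told apart from its plate, and RNA-rich and RNA-poor cells of a tumor shared an animal, a sort and a plate.

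Pericytes and the vascular fibroblasts that resemble them sit on the wall of capillaries and small vessels. They hold potassium channels (Kcnj8 and Abcc9, the subunits of an ATP-sensitive channel) and regulators of G protein signaling (Rgs4 and Rgs5) that set vessel tone, and they build basement membrane together with the endothelium. With more contractile protein, such as smooth muscle actin, mural cells resemble smooth muscle or myofibroblasts, and mural cells can also divide. The total RNA of a cell generally grows with cell size and through the cell cycle.

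The cells were selected on V, M and the ratio of endogenous to ERCC reads, so these values are given as a description. Its median was 10.2 in the RNA-rich and 3.36 in the RNA-poor cells of tumor 1, a 3.04-fold difference, and 11.4 against 3.61 in tumor 2, a 3.14-fold difference. The cells at the borders lay close together: the highest RNA-poor ratio of tumor 1 was 4.40 and the next cell above had 4.45, and the lowest RNA-rich ratio was 8.06 with 8.02 below it. In tumor 2 the same borders were 4.79 against 4.80 and 9.40 against 9.38. The vascular score had a gap at its minimum, since the lowest vCAF-like cells of the tumors scored 4.90 and 4.32, and the highest cells outside with V above M scored 3.38 and 1.74.

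Both parts of the ratio moved. RNA-rich cells had a median of 279630 endogenous reads in tumor 1 and 239097 in tumor 2, against 104809 and 138740 in RNA-poor cells, 2.67 and 1.72 times as many. ERCC reads went the other way, with medians of 25112 and 20548 in RNA-rich and of 44117 and 41332 in RNA-poor cells. ERCC reads thus took 8.92% and 8.09% of the reads of a median RNA-rich cell and 22.9% and 21.7% of those of a median RNA-poor cell. Single wells stood apart: an RNA-rich well of tumor 2 had a ratio of 232.4 with only 224 ERCC reads, and an RNA-poor well of that tumor held 415425 ERCC reads. Of the wells compared, 10 and 12 RNA-rich and 16 and 16 RNA-poor cells of tumors 1 and 2 lay on the edge of the plate.

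**Figure D1:**
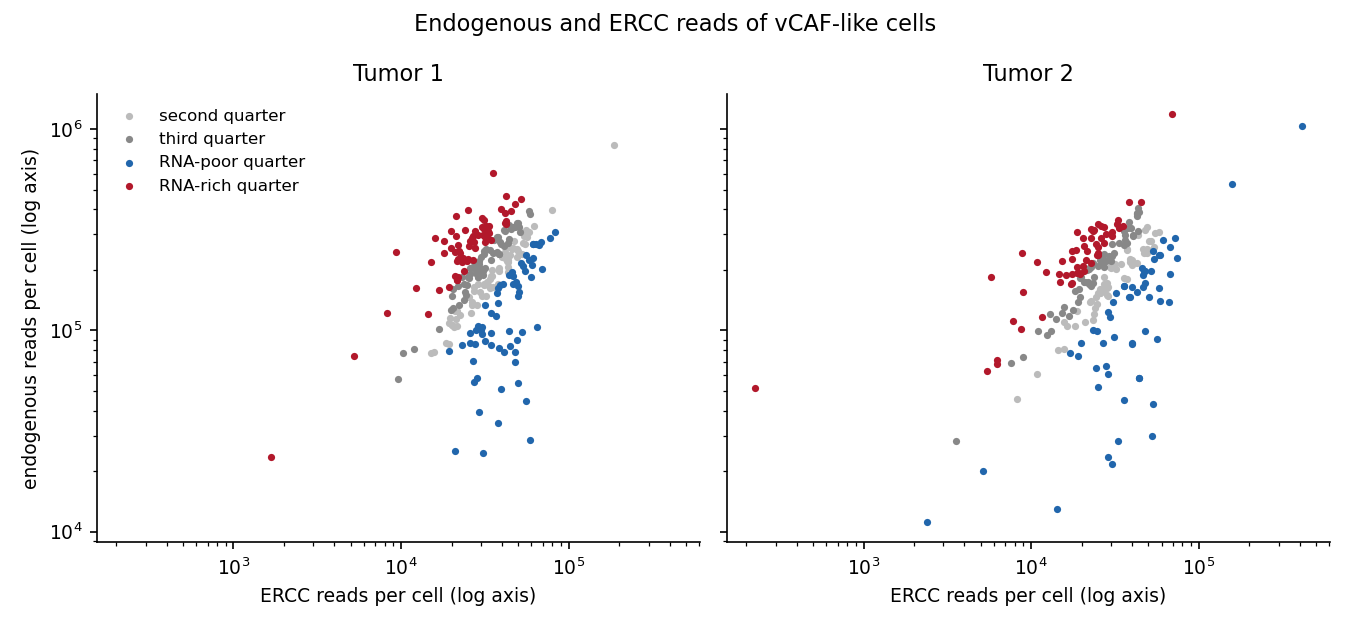
Endogenous reads (vertical, log axis) against ERCC reads (horizontal, log axis) of each of 261 vCAF-like cells of tumor 1 and 235 of tumor 2, with RNA-rich, RNA-poor and remaining cells in separate colors. RNA-rich cells lie toward more endogenous and fewer ERCC reads in both tumors, with medians of 279630 and 239097 endogenous reads against 104809 and 138740 in RNA-poor cells.

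Because of this difference in depth, each cell was thinned at random to 10000 endogenous reads before any comparison, and the thinned reads of each kind of cell were summed per tumor, which gave 4 libraries. Levels below are CPM, the reads of a gene in such a sum scaled to a total of 1000000, and genes with at least 40 reads over the 4 libraries were tested with the quasi-likelihood test of edgeR at an adjusted p under 0.05. A fold change is therefore a change in the share of a cell's RNA. It is not a change in the amount per cell, and a gene with a constant amount in a cell with more RNA falls on this scale.

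More genes had a read in RNA-rich than in RNA-poor cells at the same number of reads. At 10000 reads the median RNA-rich cell had reads on 2905 genes in tumor 1 (quartiles 2755 and 3065) and on 2932.5 in tumor 2, and the median RNA-poor cell on 2108 (quartiles 1865 and 2249) and 2090.5. The difference of the medians was 819.5 ± 31.8 genes (SD, n = 2 tumors). The 2 rank groups between them fell in order, with 2428 and 2643.5 genes in tumor 1 and 2483 and 2706 in tumor 2. With 2 tumors no test of this difference was made, and without the cycling cells defined next it was 756.5 genes. Reads carry no molecular identifier, so an equal number of reads need not stand for an equal number of RNA molecules, and genes with a read cannot be told apart from genes expressed.

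A larger share of RNA-rich cells carried transcripts of dividing cells. A cell was called cycling if its mean log2(RPKM + 1) over 24 genes of G2 and mitosis was at least 2. This held for 17 of 65 RNA-rich cells in tumor 1 (26.2%, exact 95% binomial interval 16 to 38.5) and 14 of 58 in tumor 2 (24.1%, 13.9 to 37.2). Among RNA-poor cells it held for 2 of 65 (3.08%, 0.375 to 10.7) and 2 of 58 (3.45%, 0.42 to 11.9). In the middle rank groups it held for 0 of 65 cells (upper limit of the interval 5.52%) and 3 of 66 in tumor 1 and for 3 of 59 and 0 of 60 in tumor 2. These scores used all reads of a cell. With the score taken from the 10000 thinned reads instead, a measure added after the data were seen, it held for 16 of 65 RNA-rich cells in tumor 1 (24.6%, 14.8 to 36.9) and 13 of 58 in tumor 2 (22.4%, 12.5 to 35.3), and the counts in the other rank groups were the same as with all reads. The intervals cover counting error over cells only.

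**Figure D2:**
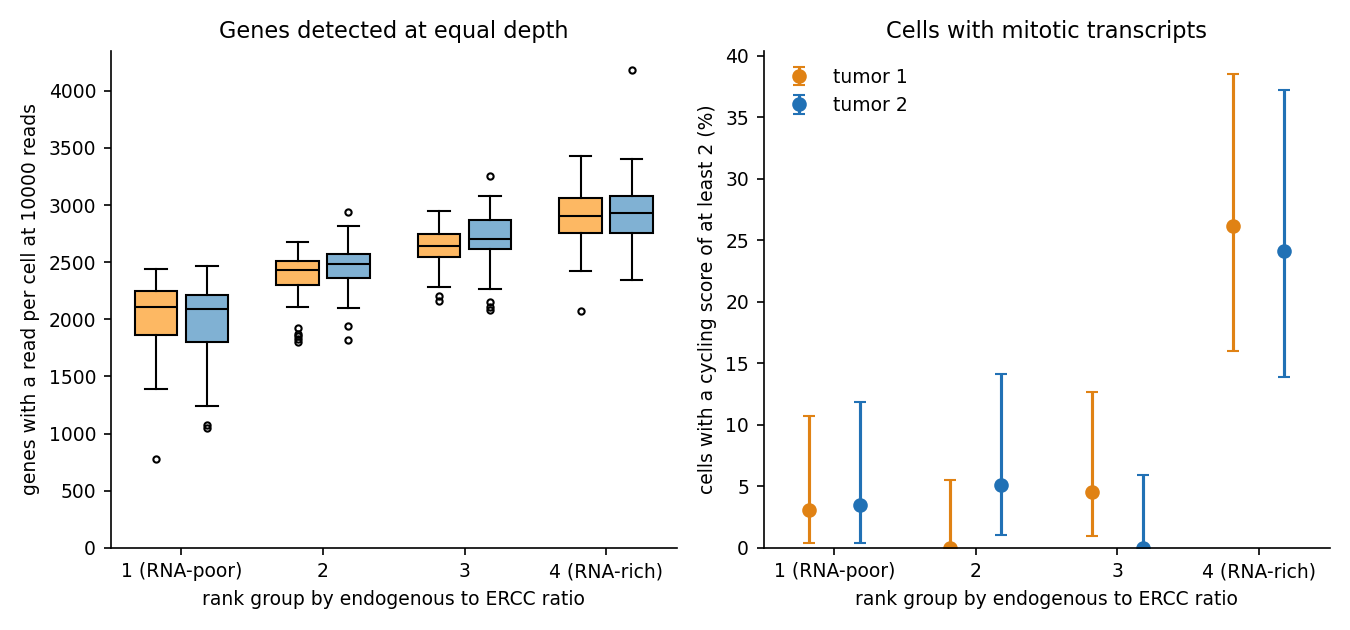
Left, box plots of the genes with a read in each cell at 10000 reads (line, median; box, middle 50% of cells; whiskers, cells within 1.5 times the box's height; circles, cells beyond) by rank group of the endogenous to ERCC ratio, and right, the percentage of cells with a cycling score of at least 2 with exact 95% binomial intervals, for both tumors. Median genes rise over the rank groups from 2108 to 2905 in tumor 1 and from 2090.5 to 2932.5 in tumor 2, and the cycling share stands at 26.2% and 24.1% in the RNA-rich group and at 5.08% or less in the other groups.

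At equal depth, 32 of 8139 genes were called higher and 19 lower in RNA-rich cells (0.393% and 0.233% of the genes tested). In both tumors 2314 of all 8139 genes were higher and 2448 lower, whether called or not. All 51 called genes changed in the same direction in both, which a call from these same 2 tumors favors. Of the 51, the higher genes held the smooth muscle actin Actg2 and the tropomyosin Tpm4, both chains of type I collagen and tenascin C, and genes of DNA replication and mitosis. The lower genes held the nuclear long RNA Malat1, the pericyte gene Steap4 and a set of low genes such as Slc15a2 and Enpp2. With the tumor as a block, which takes the paired origin of the libraries into account, 169 genes were higher and 112 lower (2.08% and 1.38% of the genes tested), the 51 among them. A total of 1199 genes had an unadjusted p under 0.05.

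The number of calls was not stable. Another random draw of the thinning gave 72 higher and 34 lower genes, leaving out wells at the plate edge 4 and 1, a ranking by endogenous reads alone 2 and 3, and no thinning 0 and 0. The differences of 3 genes described below show their sizes beside these calls: Actg2, Col1a1 and Malat1, with log2 fold changes of 4.91, 1.5 and -1.69 at equal depth, had 4.97, 1.37 and -1.72 off the plate edge (edgeR, adjusted p = 0.0519, 0.0548 and 0.0062) and 4.36, 1.39 and -1.44 without thinning (edgeR, adjusted p = 0.0643, 0.0938 and 0.0709). Ranked by endogenous reads they had 2.56, 1.28 and -1.15 and were among the few genes still called. Other named genes lost their call in that ranking. Cdk1, Top2a, Steap4 and Gdpd3 had log2 fold changes of 0.82, 0.94, -0.49 and -0.47 in it. Ranked by the ratio they had 2.63, 2.58, -1.74 and -1.76. Without thinning and scaled to the ERCC reads, 6564 genes were higher and 5 lower. The median gene rose by 1.84 on the log2 scale. The cells were chosen by the ratio of endogenous to ERCC reads, so the rule fixes a general rise on that scale. These counts are a description only. Every direction given below is a direction of shares within endogenous RNA.

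**Figure D3:**
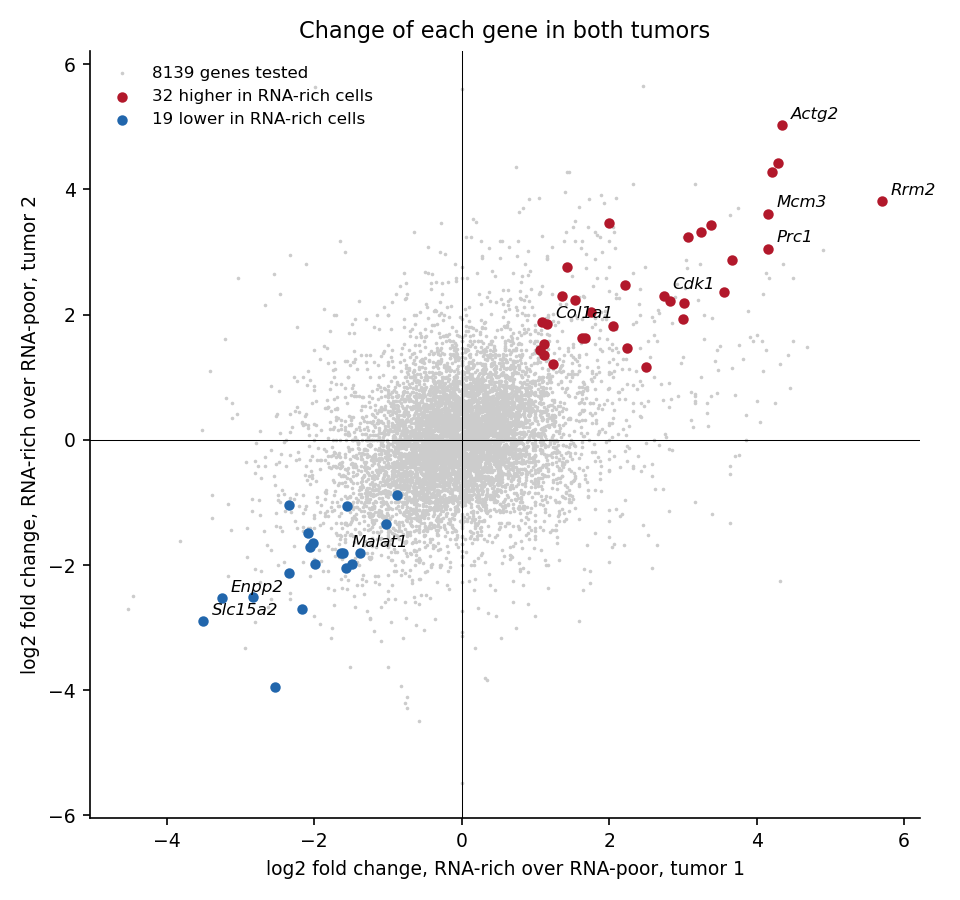
The log2 fold change of RNA-rich over RNA-poor cells in tumor 1 (horizontal) and tumor 2 (vertical) for each gene tested, at equal depth, with the 32 higher and 19 lower genes in color. All 51 called genes lie in the quadrants where both tumors changed in the same direction, which a call from these 2 tumors favors. Actg2 lies at 4.35 and 5.02 and Malat1 at -1.61 and -1.81.

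Actg2 and Tpm4 were the contractile genes that rose. Of 20 genes of the smooth muscle contractile apparatus, 19 were tested, 2 rose and none fell, beside 0.393% and 0.233% of all genes tested, and the median log2 fold change was 0.67 against -0.02 for all genes. With the tumor as a block 7 rose, beside 2.08% of all genes. The medians were 0.22 in tumor 1 and 1.13 in tumor 2.

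Actg2 (enteric smooth muscle actin, chr6:83512909-83536251) had the smallest p of all genes. Its level was 466 and 557 CPM in the RNA-rich cells of tumors 1 and 2 and 20 and 13.8 CPM in the RNA-poor cells, a log2 fold change of 4.91 ± 0.32 (SE; edgeR, adjusted p = 0.000257). It was found with a read in 30 of 65 and 35 of 58 RNA-rich cells and in 5 of 65 and 2 of 58 RNA-poor cells. The gene kept its call in 15 of 18 alternatives, with adjusted p from 4.65e-24 to 0.154. In the rank groups between, it stood at 172 and 202 CPM in tumor 1 and at 20.3 and 170 CPM in tumor 2. Actg2 and Acta2 are nearly identical in their coding sequence, so short reads could have been shared between them.

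Acta2 (smooth muscle actin, the usual myofibroblast marker) and Tagln (transgelin, an actin-binding protein of smooth muscle) are given here for their role and were chosen after their values were seen. Acta2 stood at 5820 and 7521 CPM in RNA-rich and at 2608 and 1017 CPM in RNA-poor cells, with a log2 fold change of 1.90 ± 0.35 that missed the threshold (edgeR, adjusted p = 0.0506). With the tumor as a block it was 2.03 and passed (adjusted p = 0.000766), and over the alternatives the adjusted p of Acta2 ran from 0.000766 to 0.236. The difference was 1.16 in tumor 1 and 2.88 in tumor 2. Tagln stood at 906 and 1031 against 423 and 184 CPM (1.69 ± 0.33, edgeR, adjusted p = 0.0548), and with the block at 1.78 (adjusted p = 0.0016, range over the alternatives 0.000143 to 0.42).

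Tpm4, a tropomyosin of the actin cytoskeleton, rose from 1238 and 855 CPM in RNA-poor to 2697 and 2200 CPM in RNA-rich cells (log2 fold change 1.24 ± 0.22, edgeR, adjusted p = 0.0421). Both RNA-rich libraries lay above both RNA-poor ones. Myl9, Tpm2 and Flna, a myosin light chain, a tropomyosin and the actin crosslinker filamin A, did not pass without the block and passed with it, at log2 fold changes of 0.74, 1.06 and 0.78 and edgeR adjusted p without the block of 0.297, 0.223 and 0.13. These log2 fold changes were 0.26, 0.39 and 0.44 in tumor 1 and 1.405, 2.00 and 1.13 in tumor 2. Vim, Zyx and Csrp1, which encode the intermediate filament vimentin and 2 proteins of actin-linked adhesions, also rose and were chosen after their values were seen. Vim stood at 2831 and 3228 CPM in RNA-rich and 1357 and 1197 CPM in RNA-poor cells, and the log2 fold changes of Vim, Zyx and Csrp1 were 1.26, 1.69 and 1.51. The tubulin genes Tubb5, Tubb6 and Tuba1b, chosen in the same way, rose by 1.68, 1.80 and 1.92, with the reservation that tubulin genes share much of their sequence.

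Of the matrix CAF genes, both chains of type I collagen rose. The list held 20 genes outside the score M, of which 14 were tested and these 2 rose, beside 0.393% of all genes. With the tumor as a block 6 were higher, beside 2.08% of all genes, and none was lower in either fit. The median log2 fold change was 0.64. In both tumors 13 of the 14 had a positive log2 fold change, beside 2314 of all 8139 genes. Most of the 13 did not pass the test. Gsn, the actin-severing protein gelsolin, had -0.43 and -0.62.

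Col1a1 and Col1a2 (the chains of type I collagen) were both called. Col1a1 stood at 2980 and 3269 CPM in RNA-rich and 1329 and 902 CPM in RNA-poor cells (log2 fold change 1.5 ± 0.21, edgeR, adjusted p = 0.02), and Col1a2 at 3898 and 3924 against 1792 and 1355 CPM (1.33 ± 0.18, edgeR, adjusted p = 0.02). Nearly all cells held reads of Col1a2, from 96.9% to 100.0% in the 4 groups, and no cell gave more than 9.67% of a library's Col1a2 reads. For comparison, mCAF-like cells with the same rank of the ratio held 12500 to 19129 CPM of Col1a1.

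Tnc, which encodes the matrix glycoprotein tenascin C, stood at 291 and 334 CPM against 38.5 and 69.0 CPM (log2 fold change 2.56 ± 0.33, edgeR, adjusted p = 0.018) and kept its call in 16 of 18 alternatives (adjusted p 7.23e-07 to 0.267). It had a read in 44.6% and 46.6% of RNA-rich and in 10.8% and 10.3% of RNA-poor cells. Gpc4, a cell-surface heparan sulfate proteoglycan, stood at 257 and 324 CPM against 93.8 and 44.8 CPM (2.07 ± 0.36, edgeR, adjusted p = 0.0403). Lox, an enzyme that crosslinks collagen, differed by 2.97 ± 0.57 (edgeR, adjusted p = 0.0544, called in 5 of 17 alternatives, the block among them), and had the opposite sign, -0.39, when cells were ranked by endogenous reads alone.

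The matrix score M was part of the rule and is given as a description: it was at least 2 in 35.4% and 32.8% of RNA-rich and in 18.5% and 6.9% of RNA-poor cells. It was taken from all reads of a well, of which RNA-rich cells had more, and its RPKM values were scaled to all reads with those of ERCC, so these shares do not compare the cells at equal depth. Without cells with M of at least 2 or an Epcam read, Col1a1 differed by 1.28 (edgeR, adjusted p = 0.0225) and Col1a2 by 1.13 (edgeR, adjusted p = 0.0321), while Tnc differed by 2.31 and Actg2 by 5.50 on the log2 scale. Over the alternatives the adjusted p of Col1a1 ran from 7.38e-08 to 0.0938, and that of Col1a2 from 1.77e-07 to 0.125. The scores' own genes are a description only: all 6 vascular genes were lower in RNA-rich cells in both tumors, with log2 fold changes from -0.49 (Rgs5) to -0.90 (Abcc9), and summed to 14671 and 15634 CPM against 23174 and 24147 CPM.

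Genes that load and copy DNA and those that carry out mitosis had the highest medians of all lists. All 24 genes of G2 and mitosis were tested: 4 rose, 12 rose with the tumor as a block, none fell, and the median log2 fold change was 2.37. Of 21 genes of DNA replication 18 were tested, 4 rose, 12 rose with the block, and the median was 2.48. Of all genes tested 0.393% rose, and 2.08% with the block. All 24 mitotic genes and 17 of the 18 replication genes were higher in RNA-rich cells in both tumors, beside 2314 of all 8139 genes. The mitotic genes summed to 2518 and 2416 CPM against 383 and 583 CPM.

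Cdk1, the kinase that starts mitosis, stood at 326 and 243 CPM in RNA-rich and at 46.2 and 46.6 CPM in RNA-poor cells (log2 fold change 2.63 ± 0.31, edgeR, adjusted p = 0.0157). It had a read in 46.2% and 48.3% of RNA-rich against 9.23% and 10.3% of RNA-poor cells. Top2a, the topoisomerase that untangles chromosomes, stood at 303 and 262 against 73.8 and 20.7 CPM (2.58 ± 0.46, edgeR, adjusted p = 0.0447), and Prc1, which bundles the microtubules of the central spindle, at 162 and 140 against 6.15 and 13.8 CPM. Anln, Spc25 and Kif11, which act in the cleavage furrow, the kinetochore and the spindle, rose by 3.69, 2.49 and 3.88 on the log2 scale. Few RNA-poor cells carried these reads: a single cell gave 100.0% of the Top2a reads of RNA-poor cells in tumor 2.

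Among the replication genes, Mcm3 and Mcm6 (subunits of the replicative helicase) stood at 162 and 81.0 against 6.15 and 3.45 CPM and at 194 and 141 against 21.5 and 34.5 CPM. Their log2 fold changes were 4.61 ± 0.62 and 2.60 ± 0.40 (edgeR, adjusted p = 0.0197 and 0.0254). Rrm2, a subunit of the enzyme that makes deoxyribonucleotides, had 142 reads in RNA-rich and 1 in RNA-poor cells, a ratio of 142 with an exact counting interval of 25.1 to 5650. Tyms, thymidylate synthase, rose by 2.95. Atad2, a chromatin ATPase of S phase, rose by 3.71 (edgeR, adjusted p = 0.0328) and had the opposite sign, -0.37, when cells were ranked by endogenous reads alone. Asf1b, a histone chaperone, and Shcbp1, chosen after their values were seen, had no read in RNA-poor cells and were at least 24-fold and 26-fold higher in RNA-rich cells, taking a floor of 3 reads over the group.

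The promoters of Cdk1 and Top2a are shown because cell cycle genes moved together and share letters just before their start. The 250 bases before the start were read from the RefSeq promoter table of GRCm38.p6, both genes lying on the minus strand, at chr10:69352913-69353162 for Cdk1 and chr11:99024190-99024439 for Top2a. The RefSeq gene table places the end of Top2a at 99024199, so the last 10 bases of its stretch lie inside the gene by that table. Capitals mark CCAAT and TTTGAA in either orientation. CCAAT is the box bound by the factor NF-Y, and TTTGAA is the core of the cell cycle homology region, bound by complexes of the retinoblastoma family.
Cdk1: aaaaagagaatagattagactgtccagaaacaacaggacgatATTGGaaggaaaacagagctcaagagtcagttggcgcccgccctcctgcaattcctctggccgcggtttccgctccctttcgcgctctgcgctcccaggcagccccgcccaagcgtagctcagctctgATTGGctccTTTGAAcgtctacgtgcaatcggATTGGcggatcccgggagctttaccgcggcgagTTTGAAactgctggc
Top2a: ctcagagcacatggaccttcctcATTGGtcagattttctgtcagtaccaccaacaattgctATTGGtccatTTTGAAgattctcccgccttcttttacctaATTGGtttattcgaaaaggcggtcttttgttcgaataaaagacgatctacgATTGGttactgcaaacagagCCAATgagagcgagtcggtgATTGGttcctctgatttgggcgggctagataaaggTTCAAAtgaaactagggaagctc

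Cdk1 holds 3 CCAAT and 2 TTTGAA matches in this stretch and Top2a 6 and 2. From 250 bases before to 50 after the start, CCAAT was present on either strand in 90.0% of the 20 G2 and mitosis promoters in the table, against 38.6% of 6266 promoters of tested genes and 37.9% of all 27025 promoters. TTTGAA was present in 75%, against 11% and 18.1%. In the 250 bases before the start alone, the stretch shown, TTTGAA was present in 35.0% of the G2 and mitosis promoters (7 of 20), against 9.77% for tested genes and 16.3% for all promoters, and CCAAT in 90.0%, against 36.4% and 34.5%. In the 17 promoters of DNA replication genes CCAAT and TTTGAA were present in 52.9% and 5.88%, in either stretch. A match of letters is a description of the sequence and was not tested as a site.

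Leaving out the cells with a cycling score of at least 2 left higher values of the replication genes. Their median was then 1.95 over the 11 still tested, Mcm3 among them was called, and Mcm2 and Mcm6 stood at 2.17 and 1.95 (edgeR, adjusted p = 0.103 and 0.0667). Of the mitotic genes only Cdk1 still had reads enough to be tested, and these cells were left out by the same 24 genes, which fixes a loss of mitotic reads. The score holds no gene of the replication list, so cells in S phase may remain. The cells left were therefore not shown to be outside the cell cycle. Cdk1 differed by 1.91 (edgeR, adjusted p = 0.12) and Mcm3 by 4.22 (edgeR, adjusted p = 0.0115), with adjusted p over all alternatives from 4.05e-07 to 0.53 and from 1.62e-05 to 0.316. In that comparison 21 of the 32 higher genes had reads enough to be tested and 17 of them were called, Actg2, Col1a1, Col1a2, Tnc, Gpc4, Tpm4 and Vim among them, as were 18 of the 19 lower genes. The log2 fold changes of Actg2, Tnc and Col1a1 were then 5.65, 3.32 and 1.70. Each of these 3 differences was larger than with the cycling cells in.

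**Figure D4:**
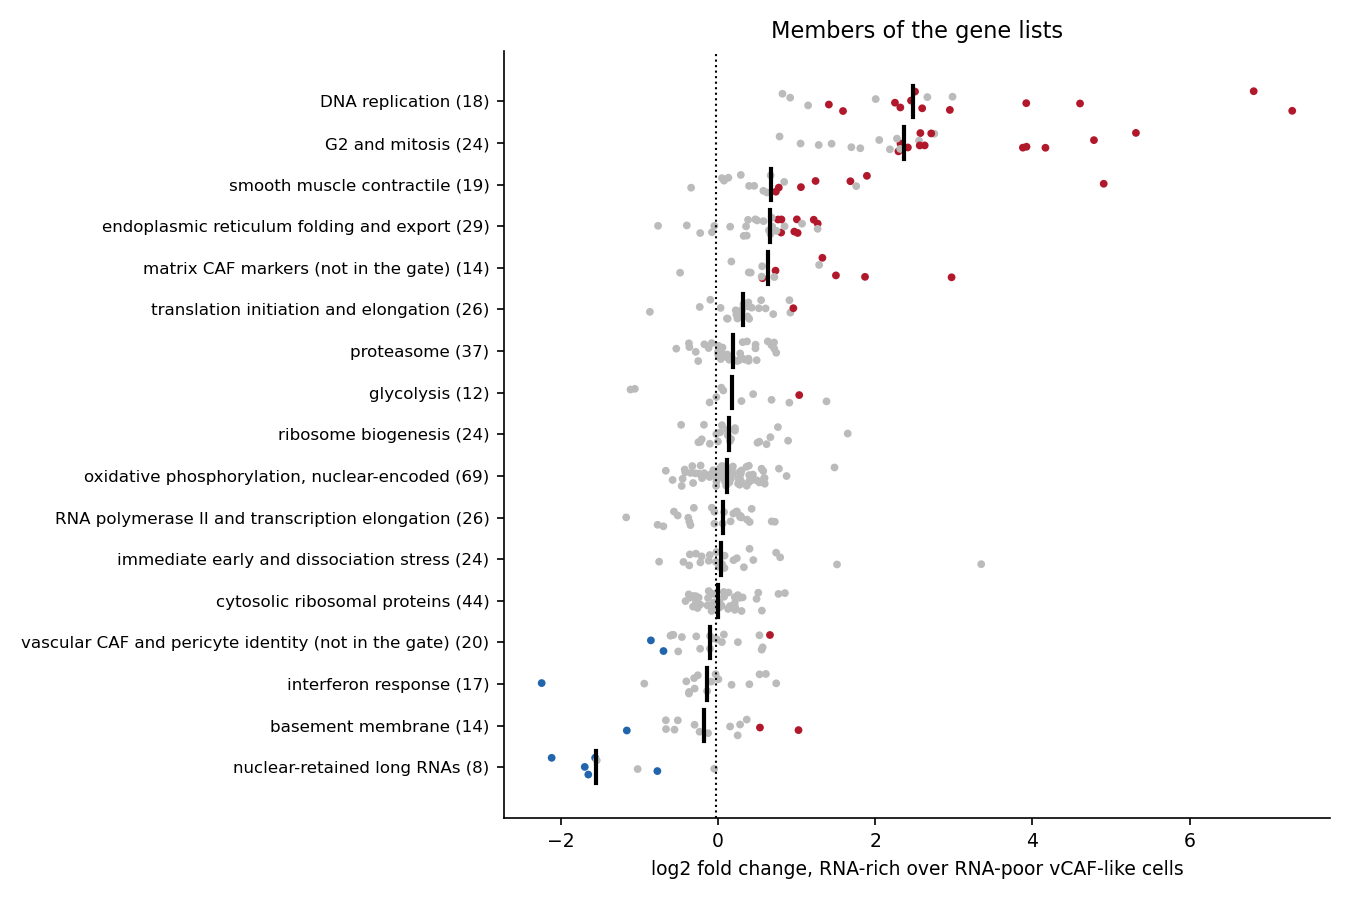
The log2 fold change of RNA-rich over RNA-poor cells (horizontal) for the tested members of 17 gene lists (rows, with the number tested), where red and blue points passed with the tumor as a block, bars are list medians and the dotted line is the median of all genes. The medians of DNA replication (2.48) and of G2 and mitosis (2.37) lie farthest to the right and that of nuclear-retained long RNAs (-1.55) farthest to the left. Hells has no read in RNA-poor cells, so its fitted value is no estimate of size.

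Genes of protein folding and export were called with the tumor as a block and not without it. Of 30 genes of folding and export in the endoplasmic reticulum 29 were tested and none was called, and 8 rose with the block, beside 2.08% of all genes tested. The median log2 fold change was 0.67, and 23 of the 29 were higher in both tumors, beside 2314 of all 8139 genes. Hspa5, the main chaperone of that compartment, stood at 1517 and 1131 CPM in RNA-rich and 823 and 753 CPM in RNA-poor cells (0.77 ± 0.21, edgeR, adjusted p = 0.126), and Pdia3, a disulfide isomerase, at 1266 and 1116 against 725 and 476 CPM (1.00 ± 0.23, edgeR, adjusted p = 0.0789). Both passed with the block (edgeR, adjusted p = 0.0276 and 0.0054, ranges over the alternatives 0.000951 to 0.746 and 0.000971 to 0.502). Ckap4, Calu and Lrrc59, proteins of the same compartment chosen after their values were seen, were called without the block at 1.95, 1.24 and 1.97.

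Lists of the growth machinery had medians from -0.002 to 0.19, where that of all genes was -0.02. Of 85 cytosolic ribosomal protein genes 44 were tested and none was called in either fit, with a median log2 fold change of -0.002. Rps3, a protein of the small ribosomal subunit, stood at 894 and 884 CPM in RNA-rich cells and at 806 and 836 CPM in RNA-poor cells of tumors 1 and 2. None of 24 ribosome biogenesis genes tested, of 26 genes of RNA polymerase II and elongation, of 69 nuclear-encoded genes of oxidative phosphorylation or of 37 proteasome genes was called with or without the block, and their medians lay between 0.07 and 0.19. Since 0.393% and 0.233% of all genes were called higher and lower, lists of this size would hold few calls in any case, and these counts of 0 are no result about the lists. The nucleolar proteins Ncl and Npm1 differed by 0.00 ± 0.26 and -0.02 ± 0.25, and Polr2a, the large subunit of RNA polymerase II, by -0.04 ± 0.28. Other abundant members had positive values in both tumors without passing in either fit: Ssrp1, a histone chaperone of elongation, stood at 217 and 198 against 125 and 129 CPM (0.73 ± 0.27, edgeR, adjusted p = 0.241), and Atp5b and Atp5a1, the beta and alpha subunits of the catalytic part of ATP synthase, differed by 0.60 ± 0.19 and 0.56 ± 0.20 (edgeR, adjusted p = 0.179 and 0.228). The proteasome subunits Psmb4 and Psmc4 differed by 0.12 ± 0.21 and 0.04 ± 0.27. In both tumors 16 proteasome genes were higher and 4 lower, and 30 and 13 of oxidative phosphorylation. For ribosomal proteins these counts were 15 and 11, for ribosome biogenesis 6 and 4, and for RNA polymerase II 5 and 6. Of all 8139 genes 2314 were higher and 2448 lower in both tumors. Scaled to ERCC reads the same 5 lists had medians from 1.88 to 2.08, beside 1.84 for all genes. The choice of the cells by the ratio fixes a general rise on that scale, so these medians are no result about the lists.

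In the next 5 lists no gene passed without the block and at most 1 each with it, where 2.08% of all genes were higher and 1.38% lower, so these counts of 0 or 1 are no result about the lists. Of 26 translation factors this was Eif5a. The median of that list was 0.32. In both tumors 17 of the 26 were higher and 1 lower, beside 2314 and 2448 of all 8139 genes. The list summed to 8182 and 8471 CPM in RNA-rich and 6868 and 6986 CPM in RNA-poor cells. Of 12 glycolysis genes only Ldha (lactate dehydrogenase) passed, with the block, at 731 and 821 against 392 and 372 CPM (1.03 ± 0.20, edgeR, adjusted p = 0.0544 without the block and 0.00868 with it, range 0.000951 to 0.595). None of 24 immediate early genes, which respond to tissue dissociation, was called in either fit (median 0.03). Fos stood at 3420 and 2634 CPM against 3935 and 3138 CPM and Egr1 at 1426 and 1278 against 934 and 1133 CPM. Of 9 tested genes of the p53 response (median 0.09) only Txnip, an inhibitor of thioredoxin, was lower with the block (363 and 264 against 695 and 703 CPM), and the list summed to 1109 and 897 against 1451 and 1467 CPM. Of 17 interferon response genes (median -0.14) only Stat2 was lower with the block.

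Genes of vascular identity outside the gate lay on both sides of 0. Of 20 vCAF and pericyte genes 5 were higher and 10 lower in both tumors, beside 2314 and 2448 of all 8139 genes. The log2 fold changes of the 20 ran from -0.85 to 0.66 with a median of -0.10. None was called, where 0.393% and 0.233% of all genes were, so this count of 0 is no result about the list. The list summed to 16032 and 16628 CPM in RNA-rich and 17328 and 17297 CPM in RNA-poor cells. With the block Col18a1 passed upward and Nr2f2 and Gucy1a3 downward, 1 and 2 of 20 beside 2.08% and 1.38% of all genes, where the log2 fold changes without it were 0.66, -0.85 and -0.69. Pdgfrb, the receptor that recruits mural cells, stood at 2531 and 2169 against 3074 and 3452 CPM (-0.46 ± 0.17, edgeR, adjusted p = 0.252), and Mcam, a mural adhesion molecule, at 2503 and 2841 against 2000 and 1671 CPM (0.56 ± 0.18, edgeR, adjusted p = 0.181). Cspg4, which encodes the sorted-out antigen NG2, was present at 388 and 521 against 458 and 426 CPM. Of 14 basement membrane genes none was called, which beside the same shares of all genes is no result about the list. With the block Sparc and Fn1 rose and Agrn fell, 2 and 1 of 14 beside 2.08% and 1.38% of all genes. The list median was -0.18, while the list summed to 25597 and 27224 CPM in RNA-rich and 21960 and 20998 CPM in RNA-poor cells. Col4a1, a chain of type IV collagen, stood at 7034 and 7914 against 5929 and 6481 CPM.

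Malat1 was the transcript of the list of nuclear-retained long RNAs that fell. Of 12 nuclear-retained long RNAs 8 were tested, 1 was lower, beside 0.233% of all genes, and 5 were lower with the tumor as a block, beside 1.38%, and the median log2 fold change was -1.55. No tested member was higher. The 12 RNAs summed to 6174 and 6369 CPM in RNA-rich and to 18177 and 20357 CPM in RNA-poor cells.

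Malat1 (chr19:5795690-5802672), a long noncoding RNA of nuclear speckles, made up most of that sum. It stood at 5414 and 5178 CPM in RNA-rich and at 16517 and 18103 CPM in RNA-poor cells, a log2 fold change of -1.69 ± 0.15 (edgeR, adjusted p = 0.00262). Every cell held Malat1 reads, and no cell gave more than 6.47% of a library's Malat1 reads. Its level fell in order over the rank groups from 16517 over 9837 and 7267 to 5414 CPM in tumor 1 and from 18103 over 8910.2 and 8417 to 5178 CPM in tumor 2. The call held in 15 of 18 alternatives (adjusted p 6.66e-18 to 0.0709). Scaled to ERCC reads Malat1 had the opposite sign, 0.42, where the median of all genes was 1.84.

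Meg3, Neat1, Kcnq1ot1 and Xist, chosen after their values were seen, did not pass without the block and passed with it. Meg3, an imprinted long RNA, stood at 70.8 and 155 against 363 and 348 CPM (-1.65 ± 0.34, edgeR, adjusted p = 0.0645), and Xist, which coats the inactive X chromosome, at 489 and 783 against 840 and 1345 CPM (-0.77 ± 0.28, edgeR, adjusted p = 0.241). Neat1 and Kcnq1ot1 differed by -1.56 and -2.11. Smart-seq2 does not mark the strand, so reads of Kcnq1ot1 cannot be told apart from those of its host gene. Rn45s, the ribosomal RNA precursor with many copies in the genome, stood at 14145 and 18541 against 23566 and 30800 CPM (-0.72 ± 0.18, edgeR, adjusted p = 0.112), and passed with the block (adjusted p = 0.00143, range 0.00143 to 0.509).

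Among the other lower genes were Ogt and Ccnl2, both known for transcripts with retained introns. Ogt, the enzyme that attaches GlcNAc to nuclear and cytosolic proteins, stood at 282 and 288 CPM in RNA-rich and at 878 and 1019 CPM in RNA-poor cells (-1.72 ± 0.20, edgeR, adjusted p = 0.0157). Ccnl2, a cyclin of the splicing machinery, stood at 100.0 and 87.9 against 428 and 297 CPM (-1.93 ± 0.28, edgeR, adjusted p = 0.0216). The tables count reads per gene, so retained introns were not measured. Akap9, a scaffold of the Golgi and centrosome, fell by 2.06 on the log2 scale (33.8 and 31.0 against 143 and 133 CPM).

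Steap4, a metalloreductase expressed in pericytes, stood at 571 and 312 CPM in RNA-rich and at 1695 and 1302 CPM in RNA-poor cells (-1.74 ± 0.28, edgeR, adjusted p = 0.0349), with reads in 56.9% and 50.0% against 73.8% and 70.7% of cells. Gdpd3, a lysophospholipase D, stood at 154 and 148 against 437 and 597 CPM (-1.76 ± 0.25, edgeR, adjusted p = 0.0209). Sparcl1, a secreted matricellular protein, and Sepp1, the plasma selenium carrier, fell by 0.86 and 1.60 on the log2 scale, both chosen after their values were seen. Sparcl1 was among the most abundant transcripts, at 5731 and 5440 against 10543 and 9998 CPM.

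Slc15a2, a transporter of small peptides, stood at 10.8 and 15.5 CPM in RNA-rich and at 154 and 138 CPM in RNA-poor cells (-3.45 ± 0.43, edgeR, adjusted p = 0.0158). These reads came from 7 of 65 and 15 of 58 RNA-poor cells, the largest giving 33% and 20% of them. Enpp2, the enzyme that makes lysophosphatidic acid, was likewise rare, at 9.23 and 10.3 against 114 and 75.9 CPM from 11 and 5 RNA-poor cells. Zufsp, Ccdc141, Ephx3, Fgl2 and Dtx3 fell by 2.62, 2.38, 1.88, 1.86 and 1.72 on the log2 scale. The log2 fold change of Dtx3 was -2.34 in tumor 1 and -1.05 in tumor 2. That of Fgl2 was -1.26 without cells with M of at least 2 or an Epcam read (edgeR, adjusted p = 0.203). Ephx3 had reads in more RNA-poor than RNA-rich cells in tumor 1 (26.2% against 10.8%) and in fewer in tumor 2 (13.8% against 25.9%).

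**Figure D5:**
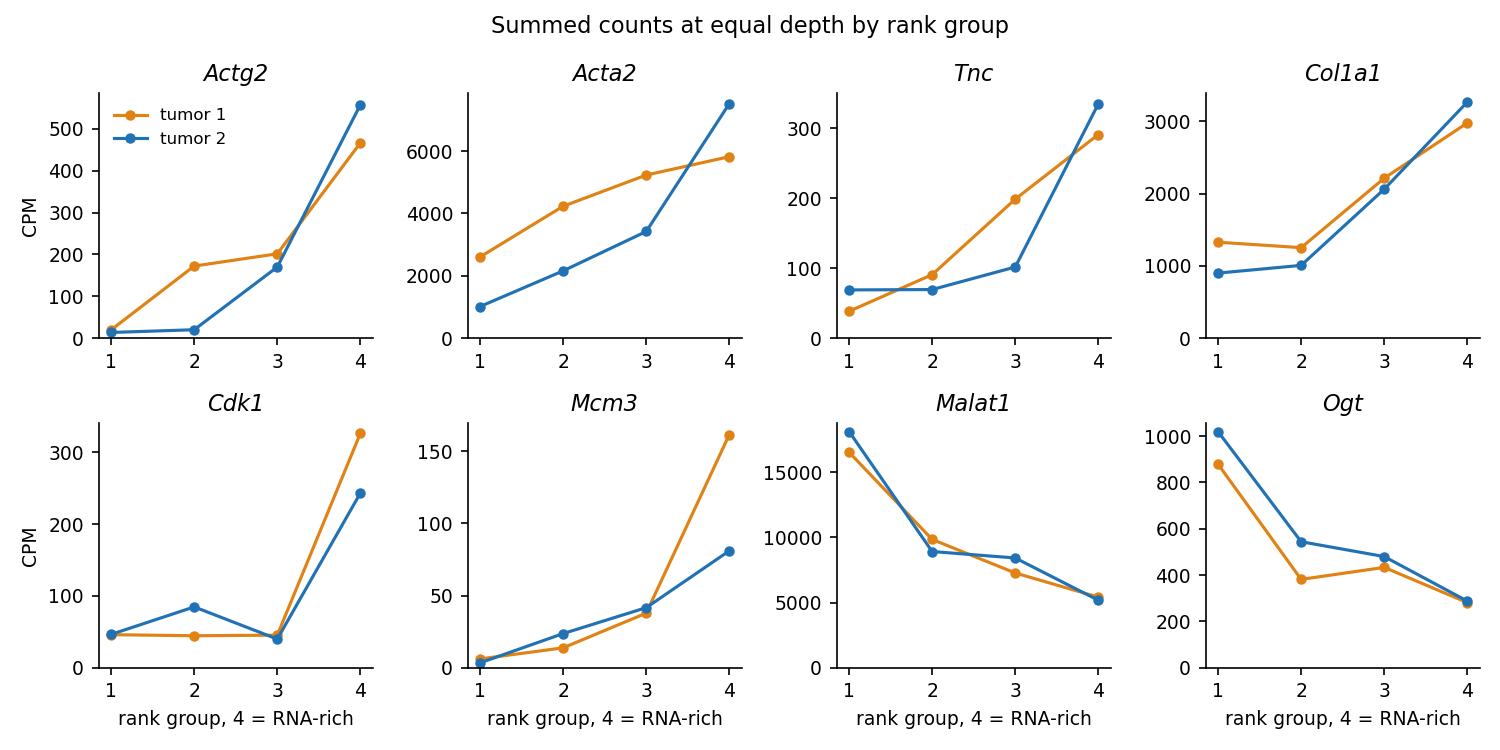
Level in CPM (vertical, from 0) of 8 genes in the summed, thinned counts of each rank group of vCAF-like cells (horizontal, 4 = RNA-rich), with 1 line per tumor. Cdk1 is at 84.7 CPM or less in the 3 lower groups and at 326 and 243 CPM in the RNA-rich one, while Malat1 falls over the groups from 16517 and 18103 to 5414 and 5178 CPM.

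The genes differed in where along the ratio they changed. Acta2 rose over every step in both tumors, from 2608 over 4232 and 5232 to 5820.0 CPM and from 1017 over 2161 and 3423 to 7521 CPM. Cdk1 changed in the last group, at 46.2, 44.6, 45.5 and 326 CPM in tumor 1 and at 46.6, 84.7, 40 and 243 CPM in tumor 2. Mcm3 rose before that, at 6.15, 13.8, 37.9 and 162 CPM and at 3.45, 23.7, 41.7 and 81.0 CPM. These orders are descriptions of 2 tumors, and no trend was tested.

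Some markers of the cells that the sort removed had no read, and others had reads. Of 12 endothelial markers, Pecam1, which encodes the sorted-out antigen CD31, and Cdh5, Kdr, Tie1 and Cldn5 had no read in any of the 4 libraries. Flt1, Emcn and Ecscr had reads in all 4. Flt1 stood at 311 and 371 against 96.9 and 193 CPM and passed with the block, Emcn stood at 120 and 153 against 117 and 198 CPM, and Ecscr at 21.5 and 25.9 against 32.3 and 39.7 CPM. The other 4 stood at 18.5 CPM or less. The leukocyte marker Ptprc had no read, and the 12 immune markers summed to at most 13.8 CPM in a library. None of the 5 red cell markers had a read. Epcam stood at 0 and 48.3 CPM in RNA-rich and at 1.54 and 27.6 CPM in RNA-poor cells, from reads in 1 and 7 against 3 and 3 cells before thinning, and the 14 epithelial and milk markers summed to 23.1 and 310 against 67.7 and 395 CPM, with 3 tested and none called. The milk gene Csn3 held most of these reads, at 15.4 and 195 against 55.4 and 234 CPM. Of 10 developmental CAF markers 3 were tested and none was called. Beside 0.393% and 0.233% of all genes called higher and lower, 0 of 3 is no result about either of these lists. In RNA-rich cells of tumor 2 a single cell gave 93.3% of the Trf reads, and a single cell gave 90.0% of the Lcn2 reads.

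The same comparison was made in mCAF-like cells to see whether the differences were particular to vCAF-like cells. There were 186 mCAF-like cells (M at least 4 and above V), with 24 and 24 RNA-rich and RNA-poor cells in tumor 1 and 22 and 22 in tumor 2. None of 4145 genes was called in them with edgeR, and 399 had an unadjusted p under 0.05. Of the 51 genes called in vCAF-like cells 28 had a value, and 25 of them had the same sign.

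The difference of the differences was tested over 7034 genes, and none was called with edgeR (513 with an unadjusted p under 0.05, smallest adjusted p 0.219). Malat1 differed by -1.45 in mCAF-like cells, and its interaction, the difference in vCAF-like minus that in mCAF-like cells, was -0.26 ± 0.47 on the log2 scale (edgeR, adjusted p = 0.945). Ogt and Ccnl2 differed by -1.63 and -1.79 in mCAF-like cells. Tnc differed by -0.33 in mCAF-like cells, where its interaction of 2.88 ± 0.62 did not pass over all genes (edgeR, adjusted p = 0.219), and Col1a1 by 0.04 (interaction adjusted p = 0.546). Cdk1 had too few reads in mCAF-like cells to be tested there, at 0 to 22.7 CPM. No change named here was therefore shown to be particular to vCAF-like cells.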

How the data were processed

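Tables of 768 wells, 1 sorted cell each from 2 tumors, were used. Per the labels and methods, the authors aligned reads to mm10 and counted them per RefSeq gene, and these counts were deposited as integers without scaling. The authors also deposited RPKM, reads scaled to gene length and to the reads of the well. Over the wells this scale followed all reads, with those of ERCC, more closely (r = 0.9996) than the endogenous reads alone (r = 0.9863). There were 24490 endogenous genes beside 92 ERCC RNAs. Columns were assigned to wells by name, with 0 left unused. Wells held 215 to 1190516 endogenous reads (median 200845). Reads carried no molecular identifier, so exact binomial intervals (95%) cover counting error only. No doublet caller was run, and wells were filtered by no quality measure beyond the minimum of reads and genes.

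The members, the gene lists and the tests were chosen with earlier results of these data known. Counts were thinned to 10000 reads per cell without replacement, summed per tumor and kind of cell, and fitted with edgeR 4.0.16 in R 4.3.3 (TMM, glmQLFit, glmQLFTest, Benjamini-Hochberg adjustment), with DESeq2 1.42.0 as an alternative. Libraries held 65 cells each in tumor 1 and 58 in tumor 2. The 12 genes of the scores V and M were fitted but not counted as calls. The fit without a tumor term was the main one because the study set the origin of cells aside. RNA-rich and RNA-poor cells of a tumor came from the same animal, which pairs the libraries, and their deviations from the group means correlated by 0.0986. The interaction with mCAF-like cells was fitted on 8 libraries with at least 80 reads per gene. The fold change within 1 tumor is log2 of the ratio of counts with 2 reads added. With 2 tumors, p-values rest on the spread between these 2 tumors and on a dispersion that edgeR shares over all genes tested. The procedure was tested on simulated data.

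Genes were named by rule: the 12 with the largest change in each direction among called genes with a mean of at least 50 CPM and the same direction in both tumors, up to 4 called members of each list by p, or the 2 most abundant where none was called, and all genes of the scores. A gene that the rule also named is not reported here. Genes named as passing with the tumor as a block alone, and those said to be so, were chosen after their values were seen. The lists were vascular CAF and pericyte identity, contractile, basement membrane, matrix CAF, developmental CAF, G2 and mitosis, DNA replication, ribosomal protein, ribosome biogenesis, RNA polymerase II, translation, oxidative phosphorylation, glycolysis, proteasome, endoplasmic reticulum, immediate early, p53, nuclear-retained RNA, interferon, endothelial, immune, epithelial and red cell genes. Coordinates are from the RefSeq gene table of GRCm38.p6, the assembly of mm10.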

Additional observations from a re-analysis of the deposited data

How the results depend on the processing

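The alternatives changed one choice each, except that ERCC scaling was also without thinning and that thinning to 25000 or 50000 reads left out cells with fewer reads (1 and 0 RNA-rich cells in each, and 1 and 5 or 6 and 9 RNA-poor cells of tumors 1 and 2), and the counts that follow are higher and lower genes. The replicate block (the tumor as a block) gave 169 and 112, DESeq2 95 and 62, ERCC totals as library sizes without thinning 6564 and 5, a minimum of 4 reads 86 and 46, another draw of the thinning 72 and 34, the cells left without those of a cycling score of at least 2 gave 58 and 36, the top and bottom 33.3% of cells 19 and 8, the upper and lower 50% 2 and 0, a ranking by endogenous reads 2 and 3, wells off the plate edge 4 and 1, thinning to 50000 reads 7 and 2, no thinning 0 and 0 (1080 genes with an unadjusted edgeR p under 0.05), and an adjusted p under 0.001 gave 1 and 0. Each cell scaled to 10000 reads without a draw, added after seeing the data, gave 8 and 2. A minimum of 200 reads gave 44 lower genes, thinning to 25000 reads 10 lower genes, and cells with M under 2 and no Epcam read 56 higher genes. The other counts of these settings and those with DESeq2 size factors or without TMM stayed within 1.5 times the main one.

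Where few genes were called they were, chosen after their values were seen, C7, Chchd10, Gabrr1, Scn4b and Slc15a2 (lower, ERCC totals), Actg2 and Col1a1 (higher) with Igfbp5, Malat1 and Rn45s (lower, endogenous reads), Ccna2, Prc1, Tnc and Ube2c (higher) with Malat1 (lower, off the edge), Fgl2 and Malat1 (lower, 50000 reads), F2r and Tnc (higher, upper and lower 50%), and Malat1 and Slc15a2 (lower, scaled). The interaction had 1 gene with the block (Col10a1) and 1 with another draw (Gucy1a3), and none at 25000 reads. The difference in genes detected was 1313.5 at 25000 reads, 1505.5 at 50000, 2012.8 without thinning, 684.75 between the top and bottom 33.3% and 756.5 without cells with a cycling score of at least 2. With ERCC totals 12 of the lower genes chosen by the naming rule or for their role turned positive on the log2 scale: Enpp2 0.020, Zufsp 0.23, Ccdc141 0.32, Akap9 0.43, Ccnl2 0.86, Ephx3 0.013, Steap4 0.016, Ogt 0.85, Dtx3 0.34, Malat1 0.42, Sparcl1 0.89 and Sepp1 0.23. Dlc1, Egflam and Smpdl3a, of the other lower genes, turned to 0.92, 0.80 and 0.37. The median of all genes was 1.84 in that setting, where the choice of the cells by the same ratio fixes a general rise. Without thinning but with TMM the log2 fold changes of these 12 genes ran from -1.84 to -0.96. Atad2 turned to -0.37 with a ranking by endogenous reads. Chchd10, of the lower genes, had the opposite sign, 0.10, in 1 of 17 alternatives, which was not the one with ERCC totals. The causes of the other changes were not tested. Leaving out 1 tumor leaves no spread for a test. The direction of all 51 calls was the same in each tumor alone, which is favored by calls that rest on these same 2 tumors.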
